A study of Rattus norvegicus with 96 samples.

Results

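Orm1, Fetub and Hp, 3 genes whose protein products circulate in plasma, were followed in the blood RNA of rats that had inhaled crystalline silica or air. They were found by their symbols in the deposited table, where each had 1 probe, and are 3 of the 12289 genes that entered the tests. Orm1 and Fetub were chosen by their measured differences between silica and air rats at weeks 0 and 16, so those values (and those of the low doses, also at week 0) are given below as descriptions with no test. Hp was not picked in that way and was tested in every comparison.

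The acute-phase response is the change in plasma protein synthesis that follows infection, injury or inhaled irritants, when interleukin-6, interleukin-1 and glucocorticoids act on the liver. Orm1 encodes alpha-1-acid glycoprotein, a lipocalin that binds drugs and lipids, and Hp encodes haptoglobin, which captures free haemoglobin so that macrophages can clear it. Both are made mainly by hepatocytes and both are classed as positive acute-phase genes, while neutrophils also make and store haptoglobin. Fetub encodes fetuin-B, a liver-derived protein of the cystatin superfamily that in mice inhibits the egg protease ovastacin and keeps the egg coat penetrable.

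All 96 animals were male rats of the strain labelled CDF Fisher 344, 3 months old, which breathed silica or air for 6 hours a day on 5 days, with 1 array per rat. The main set breathed silica at 15 mg/m3 (8 rats) or air (4 rats) for each killing at weeks 0, 1, 2, 4, 8 and 16 after exposure. The low-dose sets breathed 1 mg/m3 (8 rats against 4 on air) or 2 mg/m3 (another 8 against 4) and were killed 16 hours after the last exposure, here also called week 0. Globin transcripts had been depleted from the total RNA per the labels, and the labels give no more about the animals that would limit them as a model.

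Arrays detected between 7642 and 9970 of 21792 probe rows, with a median of 9237.5, and arrays of 1 group correlated at 0.977 or more. As a check of the labelled tissue, 6 of the listed erythroid genes, which mark red cells, had a summed linear level of 63500 to 83500 in silica rats and 70000 to 80000 in air rats. Levels below are normalized log2 intensities, and a difference is silica minus air on that scale, with the standard error (SE) of a limma fit to all arrays. A gene was called when its Benjamini-Hochberg adjusted p over the 12289 genes was under 0.05. The number of rats, above all the 4 air rats of each comparison, limits the precision.

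Orm1 (RefSeq NM_053288.1) lies on chromosome 5 at 81788509 to 81791661 of build GRCr8. Its probe was near background in blood: it was detected (detection p under 0.05) on 29 of 64 silica arrays and 19 of 32 air arrays, with raw intensities of 64.6 to 145 and a mean at the 28.8th percentile of the genes tested. Fetub (NM_053348.1, chromosome 11, 91586750 to 91599789) was detected on 96 of 96 arrays, with intensities of 84.5 to 617. Hp (NM_012582.2, chromosome 19, 54449151 to 54453701) was the brightest of the 3 probes, detected on 96 of 96 arrays with intensities of 278 to 2605 and a mean at the 88.1th percentile. The standard error between the beads of a probe, of which each array carried 22 to 61, had a median of 4.82% of the intensity for Orm1, 3.75% for Fetub and 3.03% for Hp.

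The promoter of Orm1 is shown because the gene was picked for its difference at week 0 and its textbook regulators, the C/EBP factors, have a known binding motif. It covers 250 bases before and 50 after the gene's start at chr5:81788259-81788558 on the plus strand of GRCr8, from RefSeq, written 5′ to 3′. Capitals mark the matches to the C/EBP motif TTNNGNAA, searched on both strands.
Orm1 promoter: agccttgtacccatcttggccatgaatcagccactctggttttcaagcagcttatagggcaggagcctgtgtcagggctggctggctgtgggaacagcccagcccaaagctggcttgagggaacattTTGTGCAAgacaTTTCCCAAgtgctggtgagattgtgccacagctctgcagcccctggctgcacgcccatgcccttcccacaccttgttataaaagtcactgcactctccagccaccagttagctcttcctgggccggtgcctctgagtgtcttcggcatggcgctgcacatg
The motif had 2 matches, 1 on each strand, and 41.3% of 33465 promoters of this length hold at least 1. TATAAA, the TATA box, had 1 match, against 14.2% of promoters with any. The glucocorticoid half-site AGAACA (20.7% of promoters) and the STAT motif TTCNNNGAA (8.87%) had 0 exact matches in this window, on either strand. The search would miss a site that departs from these letters, so it does not show that such sites are absent. The motifs found do not overlap. These are matches of letters only. The promoters of Fetub and Hp were not used here.

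Before the values, 8 arrays have to be set apart, 5 of silica rats and 3 of air rats, because transcripts of hepatocytes stood high on them. Of 14 listed hepatocyte markers, 11 were on the array and 9 were tested. Tf was detected on every array and was left out, and the mean log2 level of the other 8 (Alb, Apoa2, Ttr, Serpina1, Fgb, Ahsg, Cyp2e1 and Cps1) had a median of 5.06 over the 96 arrays. It exceeded 6 on 8 arrays, and the highest of the other 88 stood at 5.67. Among silica rats the values were 9.54 in rat 3 of week 2, 6.96 in rat 2 of week 8, and 7.55, 6.73 and 6.47 in rats 1, 4 and 8 of the 1 mg/m3 set. Among air rats they were 8.82 in rat 3 of week 0 in the 15 mg/m3 set, 8.22 in rat 2 of the 1 mg/m3 set and 7.04 in rat 2 of the 2 mg/m3 set.

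Albumin shows the size of this: Alb stood at 12.03 in silica rat 3 of week 2 and at 11.20 in air rat 3 of week 0, while it was detected on 36 of the 96 arrays in all. Apob, another defining marker of hepatocytes, was detected on 0 arrays. All 3 genes were high on the arrays at the top of this order: silica rat 3 of week 2 was the highest of 96 for Fetub and Hp and the third for Orm1, and air rat 3 of week 0 was the second for Hp, the fourth for Fetub and the fifth for Orm1. At week 16 no array exceeded 6, and the marker mean was 4.86 to 5.35 in silica rats and 4.90 to 5.24 in air rats. The threshold of 6 was chosen after seeing the data, and the differences between groups in Orm1, Fetub and Hp that rest on these arrays are given with and without them.

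**Figure D1:**
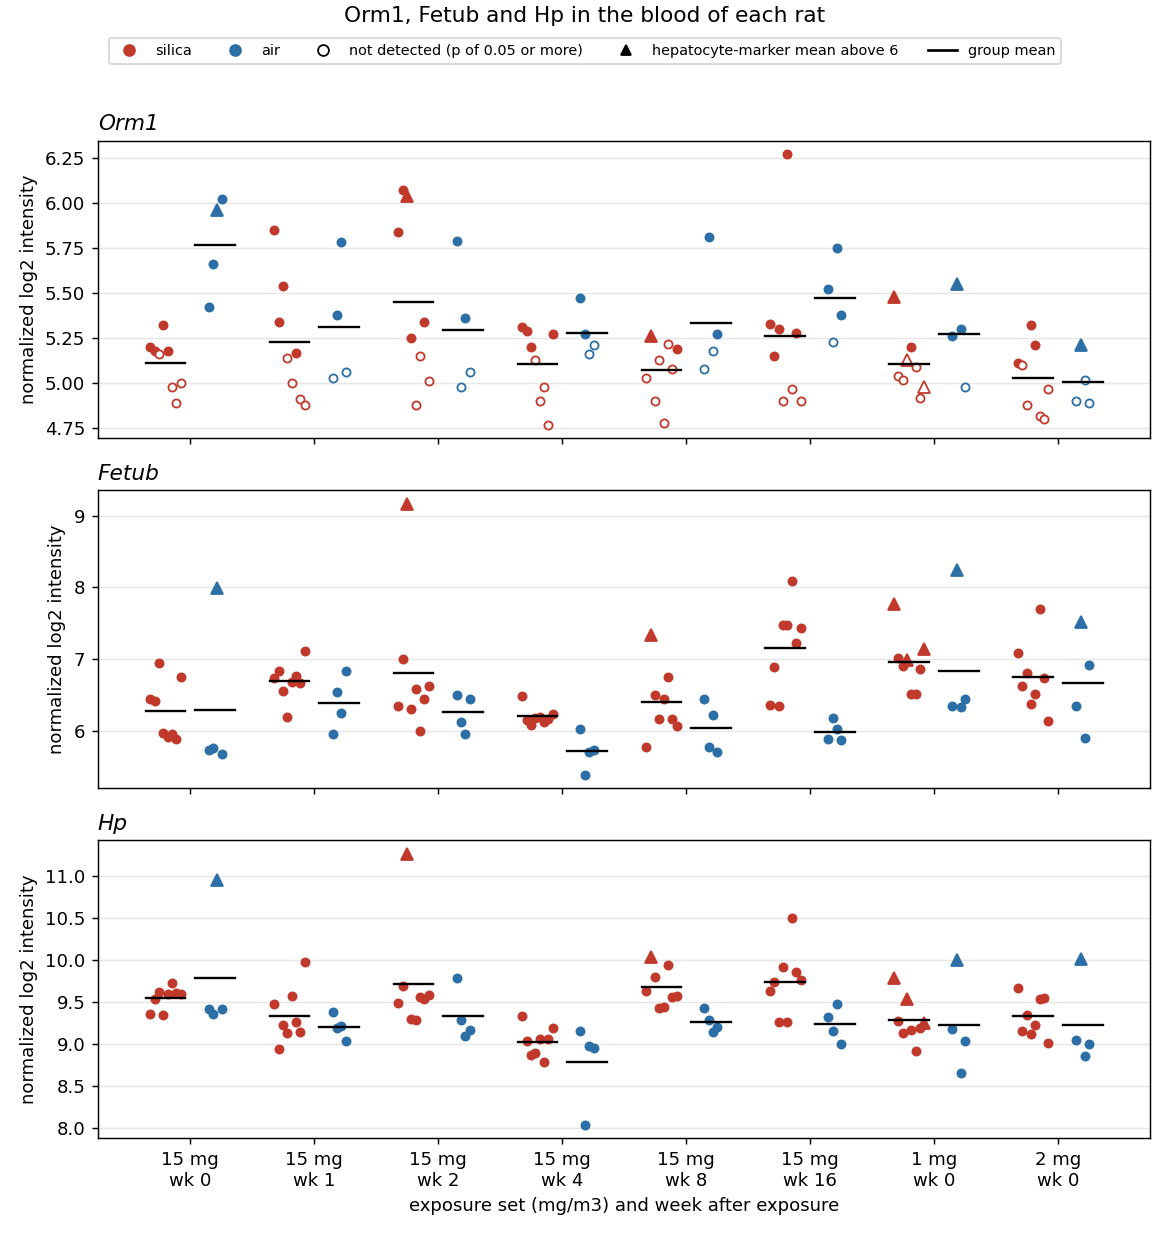
Normalized log2 intensity (vertical axis) of Orm1, Fetub and Hp in each of the 96 rats, by exposure set and week (horizontal axis), with silica rats in red to the left of air rats in blue and a line at each group mean. Open points are arrays on which the probe was not detected, and triangles are the 8 arrays whose hepatocyte-marker mean exceeded 6. The highest Fetub and Hp values, 9.16 and 11.26, are those of silica rat 3 of week 2.

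Orm1 was lower in silica than in air rats when the 15 mg/m3 exposure ended, and the groups of that week did not overlap. Silica rats of week 0 stood between 4.89 and 5.32, with a median of 5.17, against 5.42, 5.66, 5.96 and 6.02 in the 4 air rats. All 8 silica rats lay under the lowest air rat, as was the case, lower in silica, for 0.212% of the genes tested in that week. The probe was detected on 4 of 8 silica arrays and on 4 of 4 air arrays, so many of the silica values are close to background. The difference was -0.65 ± 0.17 (0.637-fold), and -0.59 without air rat 3, the array with hepatocyte transcripts. As this is the pattern for which Orm1 was picked, it carries no test.

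The silica rats of week 0, at 5.12 ± 0.14 (SD, n = 8), ranked 11 of the 16 groups in Orm1, while the air rats of week 0, at 5.77 ± 0.28 (SD, n = 4), had the highest mean of all. The means of the 8 silica groups ran between 5.03 (2 mg/m3) and 5.45 (week 2), and those of the 8 air groups between 5.00 (2 mg/m3) and 5.77. In that order 14 of 15 neighbouring groups differed by less than the larger SD of the pair, the exception being the step of 0.30 under the air rats of week 0. Neighbours in a sorted order lie close by construction, so this count is a description only.

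At weeks 1, 2, 4 and 8, which played no part in the choice of Orm1, the gene was not called. At week 1 silica rats had 4.88 to 5.85 (median 5.16), against 5.03, 5.38, 5.78 and 5.06 in air rats, a difference of -0.09 ± 0.17 (adjusted p = 0.9). At week 2 silica rats had 4.88 to 6.07 (median 5.29), against 5.79, 4.98, 5.36 and 5.06 in air rats, a difference of 0.15 ± 0.17 (adjusted p = 0.837), or 0.07 ± 0.17 without silica rat 3. Both pairs of groups overlapped over most of their range. At week 4 the difference was -0.17 ± 0.17 (adjusted p = 0.856), with silica rats at 4.77 to 5.31 and air rats at 5.47, 5.27, 5.16 and 5.21. At week 8 it was -0.26 ± 0.17 (adjusted p = 0.667), with silica rats at 4.78 to 5.26 and air rats at 5.08, 5.81, 5.18 and 5.27, and -0.29 ± 0.17 without silica rat 2. The share of genes called in these 4 comparisons was 0.391% at week 1, 0.0325% at week 2, 0.122% at week 4 and 0.269% at week 8. The difference itself was not shown to vary between the 4 weeks (moderated F, adjusted p = 0.882, with 0.0488% of genes called). The 95% interval of week 8 ran from -0.60 to 0.08.

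At week 16 Orm1 stood at 4.90 to 6.27 (median 5.22) in silica rats and at 5.52, 5.23, 5.75 and 5.38 in air rats. Silica rat 5, at 6.27, was the highest of all 96 arrays. Its hepatocyte-marker mean of 5.35 was under the threshold of 6 but was the highest of week 16, and the median over all 96 arrays was 5.06. The highest means under 6 were 5.67 (silica rat 3 at 1 mg/m3), 5.62 (silica rat 8 of week 2) and 5.55 (silica rat 5 of week 8). Orm1 on those arrays was 5.02, 5.01 and 4.78. The difference at week 16 was -0.21 ± 0.17, and -0.35 without silica rat 5 of that week. At 1 mg/m3 it was -0.16 ± 0.17, with silica rats at 4.92 to 5.48 and air rats at 5.26, 5.55, 5.30 and 4.98. At 2 mg/m3 it was 0.02 ± 0.17, with silica rats at 4.80 to 5.32 and air rats at 4.90, 5.21, 5.02 and 4.89. Without the arrays with high hepatocyte transcripts these differences were -0.13 ± 0.20 and 0.09 ± 0.19. In neither low-dose set were the silica and air rats apart.

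The level of Orm1 also moved with the position of the array in the table. The labels give no chip, and runs of 12 neighbouring columns stood in for it: the main set's air rats all lie in runs 1 to 4, together with 4 silica rats of each week. Its remaining silica rats share runs 5 to 8 with the low-dose sets. The silica rats of week 0 averaged 5.22 in runs 1 to 4 and 5.01 in runs 5 to 8, and in each of the other 5 weeks, too, the mean was higher in runs 1 to 4 (5.47 against 4.99 at week 1, and 5.46 against 5.06 at week 16). Within the 4 runs that hold both silica and air rats of week 0, the difference lay between -0.86 and -0.24, with 1 rat of each kind. Its sign was given in advance, as the groups of that week did not overlap. With the run as a random block the difference at week 0 was -0.58, and at week 16 it was -0.14.

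The size of the Orm1 difference depended on the background correction. At week 0 it was -0.07 with the stock correction, -0.31 in the authors' deposited table of log2 values and -0.37 with no background correction. In the deposited table the week 0 groups did not overlap either (silica rats up to 6.76, air rats from 6.80). They also stayed apart with the stock correction (silica rats up to 7.12, air rats from 7.13), but that was fixed in advance. Each correction keeps the order of the probes within an array, and quantile normalization then keeps the order of a gene over the arrays. With the stock correction all 96 Orm1 values lay between 7.06 and 7.23, against 4.77 to 6.27 in the main setting. The genes most like Orm1 over the 96 arrays were LOC502006 (r = 0.64), Klhdc7a (r = 0.62), Rpe65 (r = 0.62), a retinoid isomerase of the eye, Hsd17b1 (r = 0.60), a steroid dehydrogenase, and LOC503217 (r = 0.58). With group means taken out, LOC502006 remained at r = 0.61 and Klhdc7a at 0.56. The same 5 genes were nearest over the 88 arrays without high hepatocyte transcripts (r = 0.67 to 0.73). None is on the acute-phase lists, and LOC502006 and Klhdc7a were detected on 32 and 29 of the 96 arrays, and the points share their arrays and scaling.

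Fetub was higher in silica rats at week 16 than in the air rats of that week, and no rat of either group reached the other. Silica rats had 6.36, 6.89, 6.34, 7.48, 7.47, 8.09, 7.23 and 7.43 in replicate order, against 5.88, 6.18, 6.03 and 5.87 in air rats. Silica rats 1 and 3 lay nearest to the air rats, and silica rat 6 was the highest. Groups that did not overlap, higher in silica, were found for 1.45% of the genes tested in that week. The difference was 1.17 ± 0.33 (2.25-fold). In the 4 column runs that hold both groups it lay between 0.18 and 2.21. Its sign there was given in advance, as the groups did not overlap. Since Fetub was picked for its week 16 difference, that difference carries no test.

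No array of week 16 was among the 8 with high hepatocyte transcripts, and with those 8 left out the Fetub difference was again 1.17, with an SE of 0.21. The silica rats of week 16, at 7.16 ± 0.60 (SD, n = 8), had the highest Fetub mean of the 16 groups, while the air rats of week 16, at 5.99 ± 0.15 (SD, n = 4), ranked 15 of 16. The size depended on the background correction: the difference was 0.67 in the authors' deposited table and 0.27 with the stock correction, and lay between 0.75 and 1.31 with other offsets, scalings and no correction. The groups did not overlap in the deposited table either (silica rats from 7.24, air rats up to 7.13). With the stock correction (7.24 and 7.22) the lack of overlap was fixed in advance, as quantile normalization keeps the order over the arrays. Leaving out each rat in turn gave 1.04 to 1.29.

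At week 4, which the choice of Fetub did not use, the groups did not overlap either. Silica rats had 6.48, 6.15, 6.08, 6.18, 6.19, 6.13, 6.17 and 6.23, against 6.02, 5.39, 5.71 and 5.74 in air rats. The gap between the lowest silica rat (6.08) and the highest air rat (6.02) was narrow, and 0.228% of genes did the same in that direction. The difference of 0.49 ± 0.33 did not pass (adjusted p = 0.732), and it remained short of the threshold without the 8 arrays (SE 0.21, adjusted p = 0.427). In the 4 runs that hold both groups it lay between 0.13 and 1.10, and its sign there was given in advance by the lack of overlap.

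At the other tested weeks silica rats overlapped air rats. At week 1 silica rats had 6.20 to 7.11 (median 6.71), against 5.95, 6.54, 6.25 and 6.84 in air rats, a difference of 0.30 ± 0.33 (adjusted p = 0.793). At week 2 silica rats had 6.00 to 9.16 (median 6.52), against 6.50, 6.13, 5.95 and 6.45 in air rats, a difference of 0.55 ± 0.33 (adjusted p = 0.638). Silica rat 3, at 9.16 and with high hepatocyte transcripts, stood apart there, and without it the difference was 0.22 ± 0.22 (adjusted p = 0.800). At week 8 silica rats had 5.77 to 7.33 (median 6.31), against 6.44, 5.77, 6.22 and 5.71 in air rats, a difference of 0.36 ± 0.33 (adjusted p = 0.800), or 0.23 ± 0.22 without silica rat 2. The silica effect was not shown to vary between weeks 1, 2, 4 and 8 (adjusted p = 0.994), and neither were the air rats of these weeks (adjusted p = 0.529, where 14.6% of genes were called).

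At the end of exposure the Fetub difference at 15 mg/m3 was 0.00 ± 0.33, which rests on 1 air rat. Silica rats had 5.88 to 6.94 (median 6.19), against 5.73, 5.76, 7.99 and 5.68 in air rats. The air rat at 7.99 is the one with high hepatocyte transcripts, and without it all 8 silica rats lay above the 3 remaining air rats, as for 0.96% of genes in that setting, with a difference of 0.56 ± 0.23. At 1 mg/m3 silica rats had 6.51 to 7.77 (median 6.95), against 6.34, 8.24, 6.33 and 6.44 in air rats, a difference of 0.13 ± 0.33. Here 3 silica arrays and the air array at 8.24 had high hepatocyte transcripts, and without the 4 of them the difference was 0.39 ± 0.25, with 5 of 5 silica rats above the 3 air rats, as for 1.42% of genes. At 2 mg/m3 silica rats had 6.14 to 7.70 (median 6.67), against 6.35, 7.52, 5.90 and 6.92 in air rats, a difference of 0.07 ± 0.33, and 0.35 ± 0.23 without the air rat at 7.52. In the order of the 16 Fetub means, 14 of 15 neighbours differed by less than the larger SD of the pair, again as a description only.

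**Figure D2:**
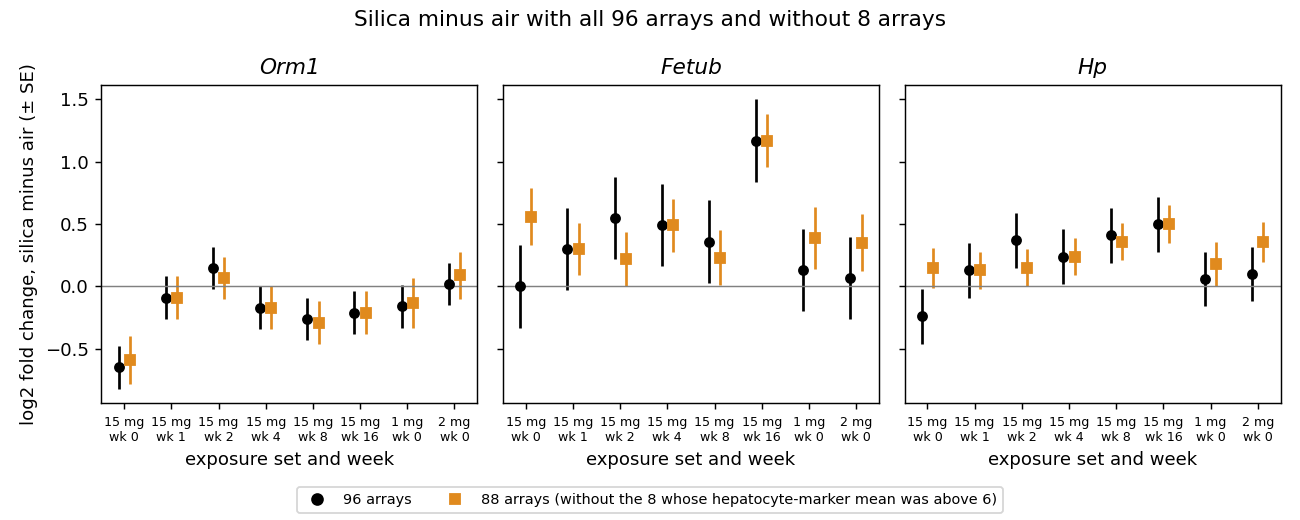
Difference of silica minus air (vertical axis, log2 scale, bars are ± 1 SE of the fit) for Orm1, Fetub and Hp in the 8 comparisons (horizontal axis), from all 96 arrays (black circles) and from the 88 arrays without high hepatocyte transcripts (orange squares). Fetub at week 16 stands at 1.17 in both, Fetub at week 0 at 0.00 and 0.56, and Hp at week 0 at -0.24 and 0.15.

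Haptoglobin transcripts stood above the air mean of the same week in all silica rats at weeks 4, 8 and 16. At week 4 the air mean of 8.78 was drawn down by air rat 2, at 8.04, and without that rat the difference was 0.00. Hp did not pass the test in any of the 8 comparisons on all arrays. At week 16 silica rats had 9.63, 9.74, 9.26, 9.92, 9.26, 10.50, 9.86 and 9.76, against 9.32, 9.16, 9.47 and 9.00 in air rats. The lowest silica rats, 3 and 5, overlapped the air rats, and 6 of 8 lay above the highest air rat. The difference of 0.50 ± 0.22 (1.42-fold) had adjusted p = 0.195 in a comparison where 4.78% of the genes were called. An exact permutation test of Hp alone gave p = 0.0364 (2-sided, over 495 splits), or 0.146 after Benjamini-Hochberg adjustment over the 8 comparisons.

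At week 8 silica rats had 9.43 to 10.04 (median 9.60), against 9.43, 9.28, 9.14 and 9.20 in air rats. Of the 8 silica rats 7 lay above the highest air rat and the other stood level with it at 9.43. The difference was 0.41 ± 0.22 (adjusted p = 0.575), and the exact permutation test gave p = 0.0101, or 0.0808 adjusted over the 8 comparisons, where the smallest p that 8 against 4 rats can give is 0.00202. In both weeks the difference was above 0 in all 4 runs that hold both groups, from 0.35 to 0.90 at week 8 and from 0.25 to 1.18 at week 16. At week 8 that sign adds little to the 7 silica rats above every air rat.

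The call for week 16 depended on arrays of other groups, through the spread that all groups share in the fit. With the 8 arrays left out, none of them from week 16, the difference stayed at 0.50, its SE fell to 0.15 and adjusted p was 0.0314, where 4.91% of genes were called. That setting was chosen after seeing the data. Week 8 did not pass in that setting (0.36 ± 0.15, adjusted p = 0.401), nor did the 2 mg/m3 set (0.36 ± 0.16, adjusted p = 0.577).

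At the remaining weeks of 15 mg/m3 Hp overlapped between silica and air rats. At week 0 silica rats had 9.35 to 9.72 (median 9.59), against 9.42, 9.36, 10.95 and 9.41 in air rats, a difference of -0.24 ± 0.22 (adjusted p = 0.842, 0.0163% of genes called). The air rat at 10.95 had high hepatocyte transcripts, and without it the difference turned to 0.15 ± 0.16 (adjusted p = 0.952), with 6 of 8 silica rats above the 3 air rats. At week 1 silica rats had 8.94 to 9.97 (median 9.24), against 9.38, 9.19, 9.21 and 9.04 in air rats, a difference of 0.13 ± 0.22 (adjusted p = 0.880). At week 2 silica rats had 9.29 to 11.26 (median 9.55), against 9.79, 9.29, 9.09 and 9.17 in air rats. The difference of 0.37 ± 0.22 (adjusted p = 0.637) was 0.15 without silica rat 3, the rat at 11.26.

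Week 4 had the lowest mean Hp level of the study in both kinds of rat. Silica rats had 8.78 to 9.33 (median 9.05), against 9.16, 8.04, 8.98 and 8.95 in air rats, a difference of 0.24 ± 0.22 (adjusted p = 0.83), which was 0.00 without air rat 2, the lowest of all 96. Hp was compared between 56 pairs of silica groups or of air groups, each adjusted over all genes, and 6 passed. Week 4 was lower than week 0 in silica rats (-0.52 ± 0.18, adjusted p = 0.0264, 24.8% of genes called) and lower than week 2 (-0.69 ± 0.18, adjusted p = 0.00297, 21.6% called). Silica rat 3 of week 2 moves the week 2 value: without the 8 arrays it was -0.46 ± 0.13 (adjusted p = 0.00353, 22% called). Week 8 exceeded week 4 by 0.65 ± 0.18 (adjusted p = 0.0103, 11.9% called) and week 16 exceeded it by 0.72 ± 0.18 (adjusted p = 0.0054, 7.57% called). Without the 8 arrays the week 8 value was 0.60 ± 0.13 (adjusted p = 0.000711, 10.2% called). With so many genes called between weeks, a call for Hp is not far from the background. The other pairs were silica rats at 1 mg/m3 against those of week 16 at 15 mg/m3 (-0.46 ± 0.18, adjusted p = 0.0435, 30.4% called) and air rats of week 4 against those of week 0 (-1.0 ± 0.26, adjusted p = 0.0043, 13.2% called). Without the 8 arrays they were -0.61 ± 0.14 (adjusted p = 0.000443, 25.3% called) and, with air rat 3 of week 0 out, -0.61 ± 0.18 (adjusted p = 0.024, 9.15% called). All 6 pairs were among the 10 that passed in that setting. The summed linear level of 14 neutrophil markers was 8550 to 10400 in silica rats and 6220 to 8790 in air rats at week 4, and 13100 to 17200 in silica rats and 8490 to 11000 in air rats at week 8. At 1 mg/m3 it was 7030 to 9500 in silica rats and 6840 to 8560 in air rats, and there Hp averaged 9.28 in silica rats and 9.22 in air rats. In bulk blood, fewer cells of a type and less RNA per cell cannot be told apart.

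At the low doses Hp differed by 0.06 ± 0.22 at 1 mg/m3 and by 0.10 ± 0.22 at 2 mg/m3 (adjusted p = 1.00 for both, with 0% of genes called). At 1 mg/m3 silica rats had 8.92 to 9.78 (median 9.22), against 9.18, 10.00, 8.66 and 9.04 in air rats. At 2 mg/m3 silica rats had 9.01 to 9.67 (median 9.29), against 9.05, 10.01, 8.86 and 9.00 in air rats. In both sets the highest rat was an air rat with high hepatocyte transcripts, and without the 8 arrays the 1 mg/m3 difference was 0.18 ± 0.18 (adjusted p = 1.00). The silica effect on Hp was not shown to differ between the 3 doses (adjusted p = 1.00, 0% of genes called) or between the 6 weeks (F = 1.44, adjusted p = 0.707, 0.146% of genes called).

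Among air rats the moderated F of Hp over the 8 groups did not pass on all arrays. The pair of week 4 against week 0 at 15 mg/m3, given above, did pass its moderated t test (adjusted p = 0.0043). The means of the 8 air groups ran between 8.78 (week 4) and 9.78 (week 0, with air rat 3 included), and the moderated F over them had adjusted p = 0.0907, where 37.8% of genes were called. Without the 8 arrays it passed (F = 2.83, adjusted p = 0.0367), as did 33.6% of genes. The silica groups ran between 9.03 and 9.74. In the order of the 16 Hp means 14 of 15 neighbours differed by less than the larger SD of the pair. As sorting brings neighbours close, this does not test the order.

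Fetub and Hp were correlated over the 96 arrays (Pearson's r = 0.67, Spearman's rho = 0.43), and with group means taken out r was 0.79. Without the 8 arrays r was 0.48 and rho 0.32. For Orm1 r was 0.23 with Hp and 0.09 with Fetub over the 96 arrays, and -0.02 and -0.18 without the 8. With Hp it was 0.19 among the 64 silica arrays and 0.48 among the 32 air arrays, which hold 3 of the 8. All points share their array, its scaling and, within a group, the exposure, and no p is attached.

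**Figure D3:**
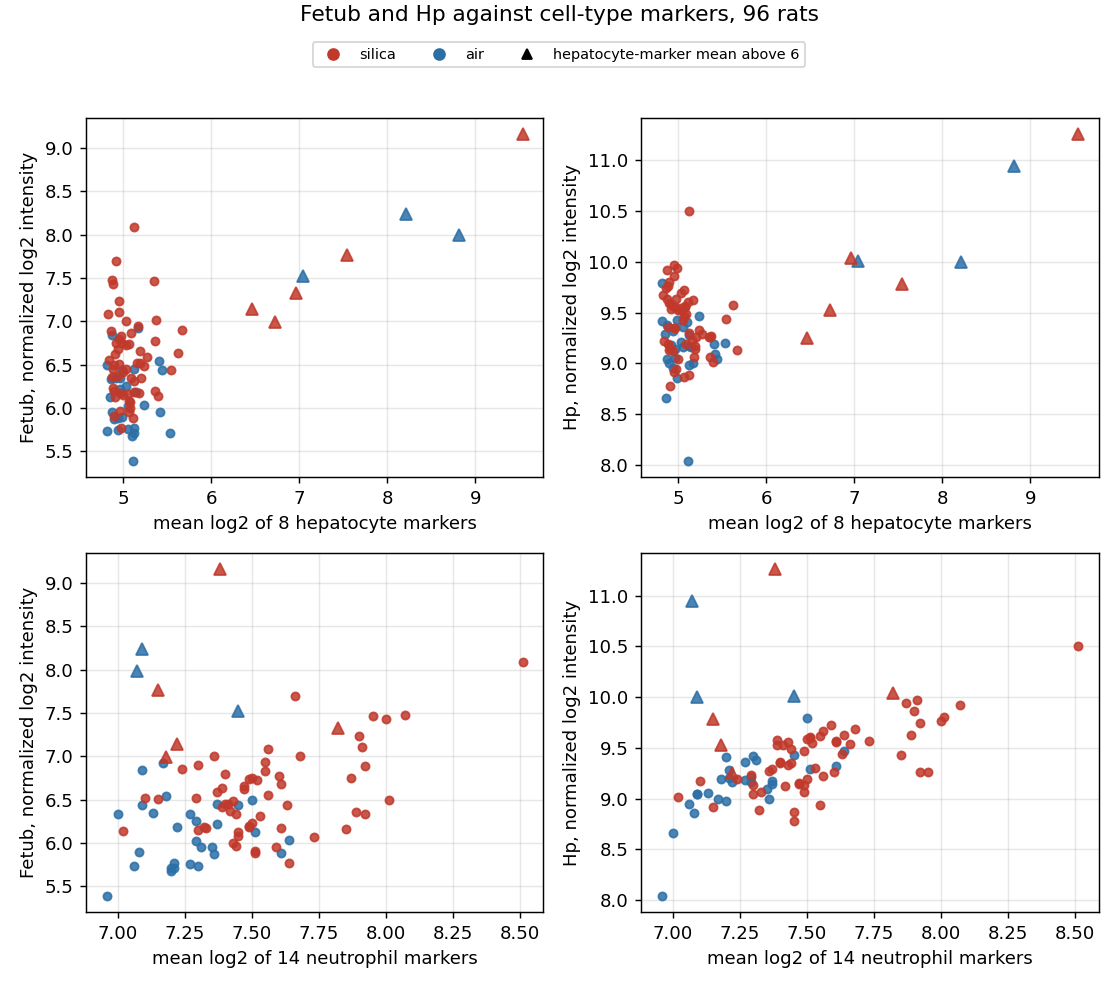
Normalized log2 intensity of Fetub (left) and Hp (right) in 96 rats against the mean log2 level of 8 hepatocyte markers (top) and of 14 neutrophil markers (bottom), with silica rats in red, air rats in blue and the 8 arrays above 6 as triangles. Along the upper panels the triangles rise to the right, while the other 88 arrays form a column under 5.67. In the lower right panel Hp rises with the neutrophil markers among those 88.

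The genes most like Fetub and Hp changed when the 8 arrays were left out. Over all 96 arrays Hp was nearest to Tf, the iron carrier transferrin (r = 0.84), Mgst1, a microsomal glutathione transferase (r = 0.68), Fetub (r = 0.67), Itih1, a hyaluronan-binding plasma protein (r = 0.65), and Serpina3n, a protease inhibitor (r = 0.64). Fetub was nearest to Tf (r = 0.76), Hp, Serpina6, the corticosteroid-binding globulin (r = 0.67), Fgg, the fibrinogen gamma chain (r = 0.66), and Pzp (r = 0.66). Apart from Tf, Mgst1 and the 2 genes themselves, these were detected on 7 to 30 arrays. Over the 88 arrays Hp was nearest to Clec4e, a C-type lectin receptor for damaged cells and mycobacteria (r = 0.85), Chi3l1, a chitinase-like protein (r = 0.85), Alox5ap, needed for leukotriene synthesis (r = 0.84), Trem1, an activating receptor of neutrophils and monocytes (r = 0.84), and Gng10 (r = 0.84). Fetub was then nearest to Rgs3, a regulator of G-protein signalling (r = 0.78), Slc16a3, a lactate transporter (r = 0.76), Fcgr2al1 (r = 0.75), Tspo (r = 0.75) and Tlr6, a Toll-like receptor (r = 0.74). Albumin had r = 0.54 with Hp and 0.63 with Fetub over 96 arrays, and -0.11 and 0.04 over 88. Because Alb is among the markers that set the 8 arrays apart, that fall is built in.

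Neutrophil markers moved with Hp. Of 18 listed markers 14 were tested, while Lcn2 was detected on 1 array and Ltf and Ctsg on 0. Their mean log2 level had r = 0.46 with Hp, 0.28 with Fetub and -0.09 with Orm1 over 96 arrays, and 0.76, 0.54 and -0.04 over the 88. At week 16 the mean was 7.89 to 8.51 in silica rats and 7.22 to 7.64 in air rats, with 10 of 14 markers called higher and 0 lower, where 3.08% of all genes were called higher. At week 8 it was 7.61 to 8.01 in silica rats and 7.21 to 7.45 in air rats, with 5 called higher, against 0.26% of all genes. The groups did not overlap at weeks 8 and 16, nor at week 0 (7.39 to 7.59 in silica rats and 7.07 to 7.30 in air rats), week 1 (7.47 to 7.91 and 7.09 to 7.31) or week 4 (7.30 to 7.50 and 6.96 to 7.29), where the Hp differences were -0.24, 0.13 and 0.24. Without the 8 arrays with high hepatocyte transcripts these Hp differences were 0.15, 0.13 and 0.24, and that of week 4 was 0.00 without air rat 2. At week 1, too, 5 markers were called higher, against 0.228% of all genes, and at weeks 0 and 4 the number was 0. The linear sums at week 16 were 13000 to 22400 in silica rats and 7560 to 11200 in air rats. Silica rat 6 of week 16 had the highest neutrophil-marker mean of all arrays, 8.51, and also the highest Fetub and Hp of its group. The part of neutrophils in the levels of Hp and Fetub was not tested.

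Few other genes of the acute-phase response were called. Of 23 further positive acute-phase genes 15 were tested, and over the 8 comparisons 1 call was made, Lbp at week 16, where 4.78% of all genes were called. Lbp, which hands bacterial lipopolysaccharide to CD14, stood at 7.35 to 8.54 (median 7.86) in silica rats and at 7.04, 7.15, 7.22 and 6.91 in air rats. All 8 silica rats exceeded the highest air rat, as for 1.45% of all genes in that week, and the rise was 0.79 ± 0.14 (adjusted p = 0.000107). At the other weeks of 15 mg/m3 the Lbp difference lay between 0.20 at week 4 and 0.42 at week 0, without passing (adjusted p = 0.734 and 0.285).

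Transferrin, a negative acute-phase protein in the liver, was the 1 call among 5 tested of 7 negative acute-phase genes, and it was higher, in a week when 3.08% of all genes were called higher. Tf stood at 11.80 to 12.71 (median 12.18) in silica rats of week 16 and at 11.69, 11.54, 11.68 and 11.55 in air rats. The groups did not overlap, as for 1.45% of all genes, higher in silica, and the rise was 0.56 ± 0.16 (adjusted p = 0.0189). Rats 6 and 3 were the highest and the lowest silica rats for Fetub, for Lbp and for Tf alike. For Hp rat 6 was also the highest, and rats 3 and 5 shared the lowest value of 9.26.

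**Figure D4:**
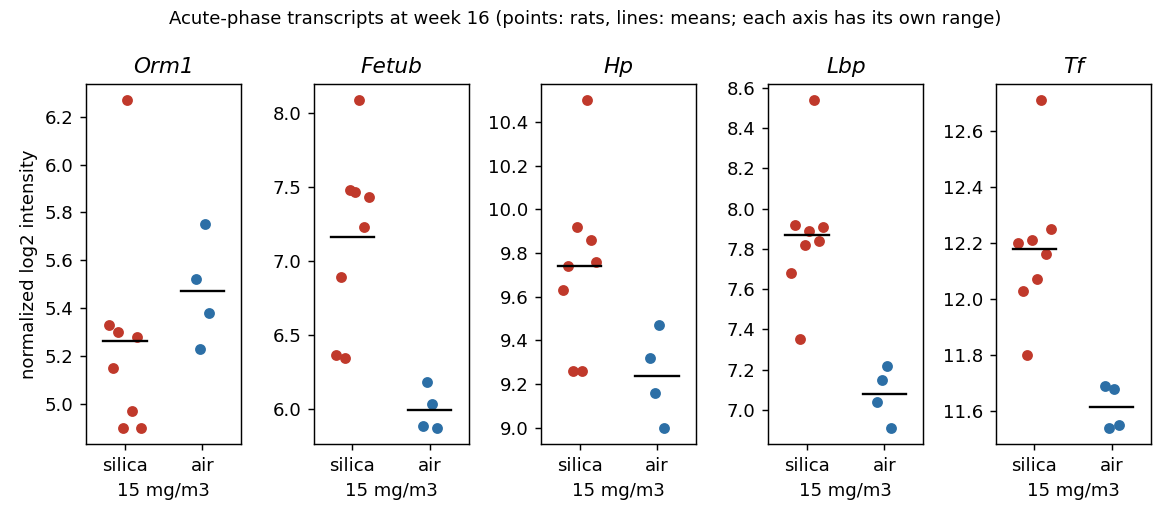
Normalized log2 intensity (vertical axes, each with its own range) of Orm1, Fetub, Hp, Lbp and Tf in the 8 silica rats (red, left) and 4 air rats (blue, right) of week 16 at 15 mg/m3, with lines at the group means. Fetub, Lbp and Tf do not overlap between silica and air rats, as for 1.45% of the genes tested, higher in silica, and Hp and Orm1 do.

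Medians of the lists followed the arrays with hepatocyte transcripts. The 15 positive genes had a median difference of -0.62 at week 0, with 1 of 15 above 0, and of 0.37 at week 2, with 15 of 15 above 0, where the median over all genes was 0.007 and 0.002. Without the 8 arrays the list's medians were 0.04 and 0.07. Serpina1 and Fgb of this list are also among the hepatocyte markers that set those arrays apart, so this shift is in part built in. For 11 of these 15 genes the highest of 96 arrays was silica rat 3 of week 2, and 14 of 15 had air rat 3 of week 0 among their 3 highest. At week 16, where no such array lies, the median was 0.00, with 8 of 15 above 0. Crp, C-reactive protein, was detected on 57 arrays and had the lowest p of the list at week 0, at -0.73 ± 0.20 (adjusted p = 0.193). Silica rats had 4.77 to 5.27 and air rats 5.50, 5.31, 7.19 and 5.28. The rat at 7.19 is air rat 3, and without the 8 arrays the Crp difference was -0.27 ± 0.12 (adjusted p = 0.696).

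In the signalling pathway upstream, 12 of 19 listed genes were tested. Jak2, a kinase that carries cytokine signals from receptors of the interleukin-6 family among others, rose at week 16 by 0.28 ± 0.09 (adjusted p = 0.0437), at 9.25 to 9.68 in silica rats and 9.05 to 9.15 in air rats, and 0 others were called in any comparison, so that 1 of 12 at week 16 stands beside 4.78% of all genes. Socs3, the feedback inhibitor of that pathway, stood at 0.40 ± 0.14 (adjusted p = 0.0876), and Il1b, interleukin-1 beta, at 0.30 ± 0.14 (adjusted p = 0.227) at week 16. Il6 itself was detected on 1 array. The list's median difference was 0.11 at week 16, against 0.001 for all genes.

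Of 9 genes that handle haemoglobin and haem once haptoglobin has bound it, 8 were tested and 0 were called. Hmox1, haem oxygenase 1, had 0.33 ± 0.15 at week 16 (adjusted p = 0.21), and Cd163, the receptor that takes up haptoglobin with haemoglobin, was detected on 0 arrays. Among the lipocalin relatives of Orm1, 2 of 6 were tested and 0 called, with Apom, a carrier of sphingosine phosphate, at -0.22 ± 0.10 at week 1 (adjusted p = 0.412). Among the cystatin relatives of Fetub, 6 of 7 were tested and 0 called, with Cstb, an intracellular cysteine protease inhibitor, at 0.21 ± 0.07 at week 8 (adjusted p = 0.142). Ahsg, fetuin-A and the nearest relative of Fetub, was detected on 51 arrays and stood at -0.14 ± 0.73 at week 16 (adjusted p = 0.949).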

How the data were processed

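Each of 96 rats had 1 Illumina BeadChip array. The deposited non-normalized table holds for each probe a mean bead intensity, a detection p-value, a bead standard error and a bead number, per the file headers. The submitters' processing notes name BeadStudio. The bead standard error is the spread of the bead signal as deposited, in intensity units, and the bead number is a plain number of beads. The deposited series table holds the authors' normalized log2 values (column medians 6.584 to 6.617), with limma and lumi named in the submitters' processing notes. Its transform is not given in the sources used here, and it served as an alternative only. It followed the log2 intensity of its own array in 96 of 96 cases (r of at least 0.9915).

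The tools were limma 3.58.1 under R 4.3.3, with data.table at version 1.17.8. Background was removed by normexp with an offset of 16, from detection p-values on a grid of 825 steps. That estimate skipped 626 rows off the grid that stayed among the data, a departure from stock limma. Quantile normalization and log2 followed. Rows with detection p under 0.05 on at least 4 arrays (12368 of 21792) were kept, and the row of highest mean for each gene. Names came through Entrez IDs for 16866 rows, from the file's symbol, its suffix removed, for 144, and unchanged from the file for 4782. Genome positions are from RefSeq for GRCr8.

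The model gave each of the 16 groups its own mean over the 96 arrays, and moderated t and F tests were adjusted by the Benjamini-Hochberg method over 12289 genes. The fit was tested on simulated data. Nothing in the labels ties rats of different groups together, and p-values measure the spread between rats. The genes, the lists and that departure were chosen with earlier results of these data known. Named besides Orm1, Fetub and Hp were the 5 genes most correlated with each, and from each list the genes called or up to 4 of lowest p. Correlations are given as descriptions. Alternatives are named in the closing part.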

Additional observations from a re-analysis of the deposited data

Results flagged for a closer look

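In groups of 4 to 8 rats, a rat counted as far from the others when its gap to the nearest rat, as a share of the group's range, exceeded Dixon's 95% critical value. Of 48 groups tested (3 genes in 16 groups) 8 had such a rat, and chance flags about 1 in 20 groups. For Orm1 it was silica rat 5 of week 16, at 6.27. For Fetub these were silica rat 1 of week 4 (6.48), silica rat 3 of week 2 (9.16), air rat 3 of week 0 in the 15 mg/m3 set (7.99) and air rat 2 of the 1 mg/m3 set (8.24). For Hp these were silica rat 3 of week 2 (11.26), air rat 3 of week 0 in the 15 mg/m3 set (10.95) and air rat 2 of the 2 mg/m3 set (10.01). All but the Orm1 value and the Fetub value of 6.48 lie on the 8 arrays with high hepatocyte transcripts.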

How the results depend on the processing

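Of 322 values under other settings, 312 counted as unchanged. A tested value had to keep direction and side of the threshold, and a value with no test to stay within the spread between rats. That rule is lenient: Fetub at week 0 moved from 0.00 to 0.56 without the 8 arrays and is among the 312. Many tested values lay far from the threshold, so keeping their side says little. The Orm1 difference at week 0 was -0.07 with the stock background correction, -0.37 with none, -0.37 with an offset of 50 and -0.31 in the authors' deposited table, against -0.65. Fetub at week 16 was 0.27 with the stock correction and 0.67 in the deposited table, against 1.17. In the deposited table the silica and air rats of these weeks did not overlap in these genes. With the stock correction they could not overlap, as quantile normalization keeps the order of a gene over the arrays. The cause of the smaller sizes was not tested. The replicate number as a block turned Orm1 at week 1 to 0.02 (adjusted p = 0.98). Same-numbered rats had correlated deviations above 0.1 in 6 of 32 pairs (r from -0.32 to 0.27). These values gave no clear sign that the numbers pair rats, but rats of different numbers were not measured for comparison. Without the 8 arrays, Hp at week 0 turned to 0.15, Hp at week 16 (0.50) passed at adjusted p = 0.0314 and the air groups differed in Hp (F = 2.83, adjusted p = 0.0367).

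Of 288 refits that left out 1 rat, 281 gave no change of that kind. Among tested values, the ranges with a turn of direction were -0.18 to 0.07 for Orm1 at week 1, and for Hp -0.38 to 0.15 at week 0, 0.00 to 0.37 at week 4, -0.13 to 0.32 at 1 mg/m3 and -0.02 to 0.36 at 2 mg/m3. Among values with no test, the range also crossed 0 for Orm1 at 2 mg/m3 (-0.02 to 0.09) and for Fetub at week 0 (-0.21 to 0.56), 1 mg/m3 (-0.04 to 0.59) and 2 mg/m3 (-0.18 to 0.35).

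The count of called genes moved by over 1.5 times in several settings. With only the 12 arrays of a comparison it was 1, 3, 0, 0, 90 and 62 at weeks 0 to 16, against 2, 48, 4, 15, 33 and 588. The stock correction gave 4 at week 0 and 25 at week 1, the deposited values gave 25 at week 1 and 1 at week 4, and no filter 2 at week 2 and 71 at week 4. The replicate block gave 1 at week 2, 6 at week 4 and 1 at each low dose, and leaving out the 8 arrays gave 0 at week 0. Each gene had 1 row, so no other row could be tried. Orm1 near background limits what its probe can show.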
